A study of Mus musculus with 95 samples.

Results

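The genes described here make, sense, store and export cholesterol. They were 31 of the 55401 gene rows in the deposited count table, picked by symbol, and each symbol stood in 1 row. Of the 31, 19 code for enzymes of synthesis, 6 for regulators and sterol sensors, and 6 for proteins of transport, storage and efflux. Polyadenylated RNA had been sequenced from 4 organs, namely liver, kidney, cortex and white adipose tissue (WAT), of C57BL/6J mice, an inbred laboratory strain. Mice of the first group were 205 days old and had been kept for 3 months in what the series calls a torpor-like state (TLS), a spell of lowered metabolism and body temperature. Control mice were of the same age and were taken at the same time, and mice of the time-0 group, sampled when the 3 months began, were 83 days younger. Each group held 8 animals, 4 F and 4 M by the sex letters in the labels, so a tissue had 24 libraries, except WAT with 23, since for control animal 9BA4 a WAT library was not analysed here. The labels call the TLS group "Stim" and do not say how the state was induced or what the mice ate. All mice were perfused with PBS before the tissues were taken.

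Cholesterol is built from acetyl-CoA through mevalonate, isoprenoid units, squalene and lanosterol, and most of the enzymes of this route are switched on together by the transcription factor SREBP2, the product of Srebf2. When the endoplasmic reticulum holds enough sterol, the INSIG proteins retain SREBP2 with its escort SCAP and synthesis falls. A second arm, the oxysterol receptor LXR, is active when sterol is plentiful and drives efflux pumps such as ABCA1, ABCG5 and ABCG8. The liver makes cholesterol for export and disposes of it into bile, whereas the cortex makes its own, much of it for myelin.

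The stretch of 250 bases before the start site is shown for the 3 synthesis genes that were lower in liver under TLS (Nsdhl, Lss and Sc5d), for Abca1, the gene that was higher in cortex, and for Hmgcs1. Hmgcs1 is shown because it was the member whose window held the classical sterol response element. Sequences are from RefSeq on GRCm38.p6, 5′ to 3′ along the gene, and 26 of the 31 members had a window. Capitals mark TCACNCCAC (the sterol response element, to which SREBP binds) and CCAAT (to which NF-Y binds, a usual partner of SREBP) on either strand. In the Abca1 window they mark the DR4 element, the direct repeat to which LXR binds, and CCAAT.

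The Hmgcs1 window lies at chr13:119690101-119690350, plus strand, that of Nsdhl at chrX:72918271-72918520, plus strand, and that of Lss at chr10:76531355-76531604, plus strand. The Sc5d window lies at chr9:42264301-42264550, minus strand and that of Abca1 at chr4:53159896-53160145, minus strand.
Hmgcs1: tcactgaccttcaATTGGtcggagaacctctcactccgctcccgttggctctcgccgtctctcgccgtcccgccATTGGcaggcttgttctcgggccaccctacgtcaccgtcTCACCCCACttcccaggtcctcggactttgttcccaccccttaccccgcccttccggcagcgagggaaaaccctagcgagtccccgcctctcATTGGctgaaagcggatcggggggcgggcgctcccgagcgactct
Nsdhl: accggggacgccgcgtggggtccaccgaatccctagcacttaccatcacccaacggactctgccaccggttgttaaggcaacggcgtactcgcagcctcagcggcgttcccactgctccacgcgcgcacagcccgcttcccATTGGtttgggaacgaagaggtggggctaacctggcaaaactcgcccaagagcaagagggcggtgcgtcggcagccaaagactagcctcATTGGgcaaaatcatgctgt
Lss: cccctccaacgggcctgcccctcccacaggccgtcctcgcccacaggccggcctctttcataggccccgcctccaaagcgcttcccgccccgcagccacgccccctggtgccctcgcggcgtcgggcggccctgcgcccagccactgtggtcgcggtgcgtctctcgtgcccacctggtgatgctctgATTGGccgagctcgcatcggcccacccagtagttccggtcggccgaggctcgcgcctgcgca
Sc5d: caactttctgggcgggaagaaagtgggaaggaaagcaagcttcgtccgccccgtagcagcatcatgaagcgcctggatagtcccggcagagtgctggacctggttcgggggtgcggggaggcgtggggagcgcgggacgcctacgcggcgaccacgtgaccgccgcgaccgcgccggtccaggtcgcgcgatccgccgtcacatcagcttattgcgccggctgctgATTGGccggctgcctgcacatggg
Abca1: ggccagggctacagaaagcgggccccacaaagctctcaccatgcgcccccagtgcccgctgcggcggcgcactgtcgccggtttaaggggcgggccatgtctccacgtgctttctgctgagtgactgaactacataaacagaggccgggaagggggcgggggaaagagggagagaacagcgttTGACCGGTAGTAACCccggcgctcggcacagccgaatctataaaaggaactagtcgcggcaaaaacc

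Motifs were searched on both strands over the whole window of 300 bases, from 250 before to 50 after the start site. TCACNCCAC stood in the window of Hmgcs1 alone among the 26 members, with its first base at -137. The 26 members had 34 windows, as some genes have several start sites, so TCACNCCAC stood in 2.94% of member windows and in 1.24% of all 32851 windows. The looser TCACNNCAC, which includes it, stood in 4 members (Hmgcs1, Dhcr7, Hsd17b7 and Msmo1), in 11.8% of member windows and in 3.77% of all windows. CCAAT stood in 22 of the 34 member windows (64.7%), those of Nsdhl, Lss and Sc5d among them, and in 37.4% of all windows. GGGCGG, a GC box, stood in 24 member windows (70.6%) and in 35.7% of all windows. The Abca1 window held the DR4 element with its first base at -67, which 0.207% of all windows hold. These are matches of letters, and no binding was measured in these data.

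Library totals lay between 4031533 and 29269511 counts in liver, between 8217875 and 28337864 in kidney, between 14299369 and 22962145 in cortex and between 15881766 and 29089492 in WAT. Library numbers run from TLS to control animals in order, so library order and TLS cannot be told apart, and kidney time-0 animals 4 and 5 carry the opposite sex letters to their other tissues, which were used as given. The shallowest library was the liver of TLS animal B51B and the deepest the liver of TLS animal A5DA. Markers of neurons, kidney tubule, hepatocytes and adipocytes were counted in every library of their tissue. Animal A5DA stood apart in macrophage markers: their summed level was 1242 CPM in its liver, where the TLS median was 181, and 7250 CPM in its WAT, where the TLS median was 1148. Levels are CPM, counts scaled to a common library total, on library sizes scaled within the tissue. A gene is said to be called, to rise or to fall where the p of edgeR's quasi-likelihood test, Benjamini-Hochberg adjusted over every gene in the fit, was under a threshold of 0.05, and errors of log2 fold changes are SE. In bulk tissue, fewer cells of a type and less RNA per cell cannot be told apart.

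The 31 genes were shared out unevenly over the tissues. By the mean of the control libraries, 16 were highest in liver, 6 in cortex, 4 in kidney and 5 in WAT. Library sizes were scaled within each tissue for these levels, so differences in RNA make-up between tissues were not corrected for. Late sterol enzymes led in liver: Ebp, which shifts a double bond in the sterol ring, averaged 268 ± 58.2 CPM (SD, n = 8) there and 13.8 ± 0.963 CPM in cortex (n = 8), and Sc5d, the lathosterol oxidase, 380.6 ± 134.7 CPM in liver and 32.8 ± 6.85 CPM in kidney (n = 8). The cortex was highest in Srebf2 itself, at 263 ± 11.1 CPM against 29.5 ± 10.6 CPM in liver, and for each of these 3 genes the control libraries of the pair of tissues named did not overlap. Cyp51, the lanosterol demethylase, was highest in kidney at 256 ± 99.6 CPM, and Abca1, the pump that loads cholesterol onto apolipoprotein A-I, in WAT at 210 ± 51.6 CPM (n = 7). Neighbours in these orders often lay within their spread: Lss, lanosterol synthase, had 39.5 ± 16.7 CPM in liver, 34.9 ± 2.41 in cortex and 32.5 ± 11.6 in WAT. Fdft1, squalene synthase, had 104.4 ± 46.1 CPM in liver and 96.1 ± 3.92 in cortex, an order that turns when plain library totals are used.

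**Figure D1:**
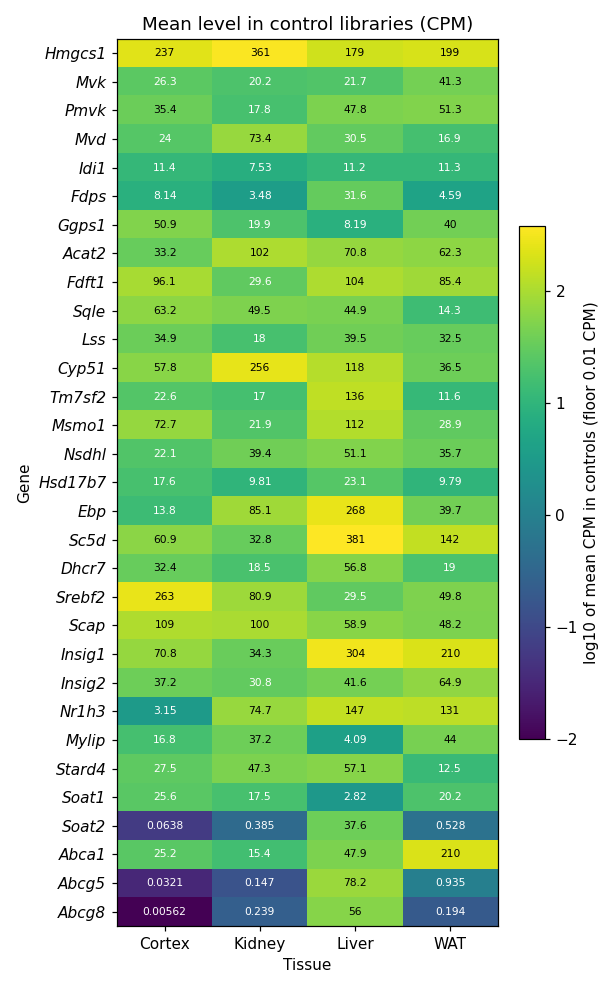
Mean level of each member in control libraries of the 4 tissues in CPM (n = 8, in WAT 7), printed in each cell and coloured on a log10 scale; it is to be read along a row, since the values are not divided by gene length. Soat2, Abcg5 and Abcg8 are near 0 outside liver.

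Transport and storage were split by tissue as well. Soat2, the sterol acyltransferase of hepatocytes, had 37.6 ± 4.67 CPM in control liver and 0.385 ± 0.254 in kidney, whereas Soat1, its relative in most other cells, had 25.6 ± 1.04 CPM in cortex and 2.82 ± 0.894 in liver. Abcg5 and Abcg8, whose products form the pump that sends sterols into bile, had 78.2 ± 23.02 and 56.01 ± 12.5 CPM in control liver and stayed below the filter on low counts in cortex and kidney, as did Soat2. So 28 members were tested in cortex and kidney and 31 in liver and WAT. Nr1h3, which codes for LXR alpha, was lowest in cortex, at 3.15 ± 0.827 CPM, and had 147 ± 49.5 CPM in liver. Per kilobase of exon, control liver held 115.9 CPM of Ebp, 98.2 of Insig1 and 78.2 of Sc5d, and 3.19 of Idi1, the isomerase of isoprenoid units. The length used was that of all annotated exons of a gene. Idi1 has near-identical pseudogenes, so its level is uncertain.

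TLS against control, the comparison at equal age, gave called members in liver and cortex. In liver, 3 of 31 members fell (Nsdhl, Sc5d and Lss) and none rose, and 1.95% of all 13604 genes tested were called there. In cortex, 1 of 28 rose (Abca1), where 5.41% of all genes were called. In kidney and WAT no member was called, of 28 and 31, where 0.231% and 0.00596% of all genes were called. For these zeros, DESeq2 also called 0 members in either tissue, and 1 member in kidney and 2 in WAT had an unadjusted p below 0.05, as did 8.45% and 11.1% of all genes.

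**Figure D2:**
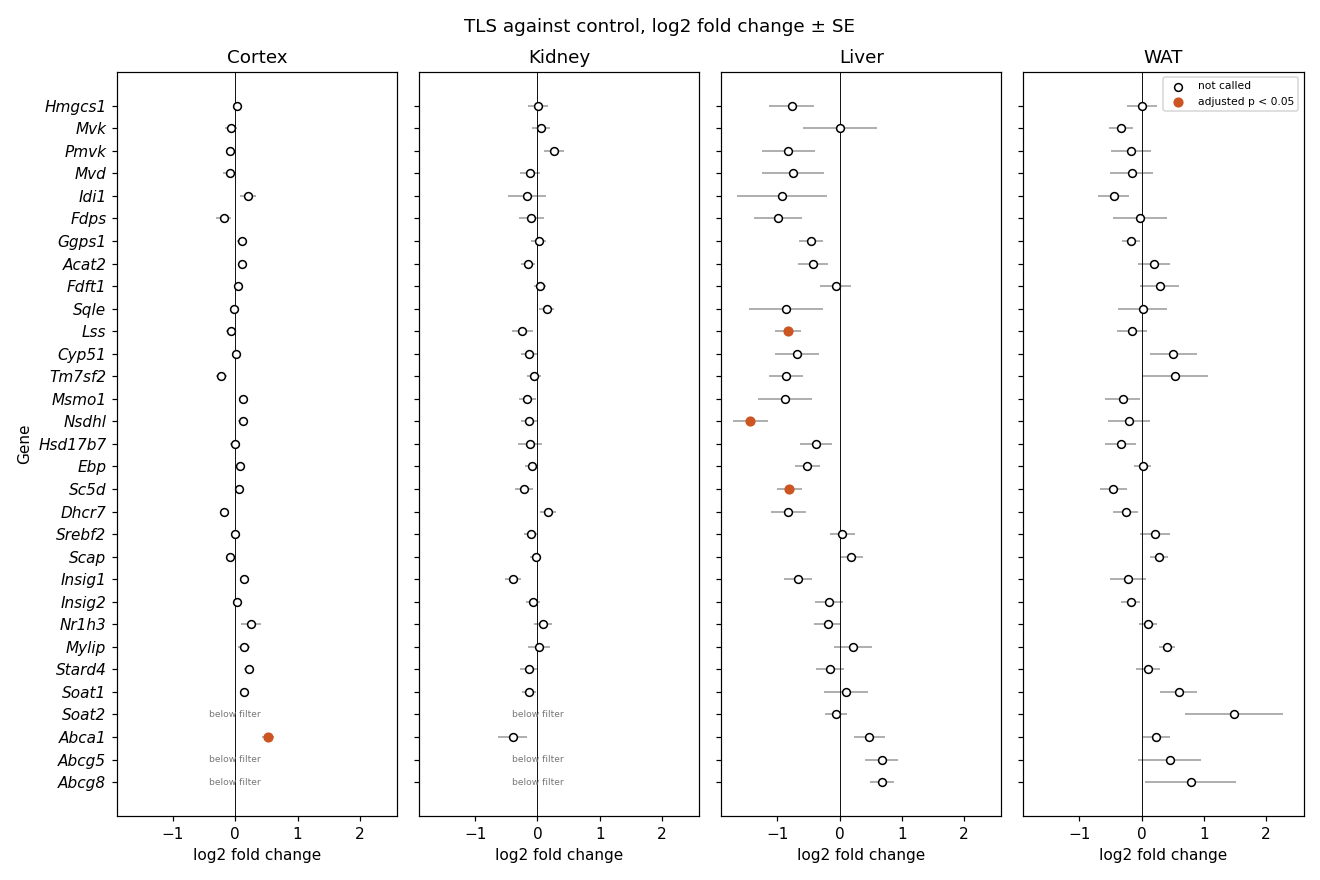
Log2 fold change of TLS against control for each member in 4 tissues, with bars of SE; filled points were called at an adjusted p below 0.05 (edgeR) and open points were not. In liver 18 of the 19 synthesis genes lie left of 0, and in the other tissues the members lie on either side of it.

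The synthesis genes of the liver lay low as a group. Of the 19, 18 had a negative log2 fold change and their median was -0.80, whereas the median of all genes tested was 0.08 and 41.6% of them were negative. The called genes sat in the squalene and sterol steps, where all 11 members were negative with a median of -0.82. The 8 genes of the mevalonate and isoprenoid steps had a median of -0.76 with none called. The enzymes with the next smallest p were Tm7sf2 and Dhcr7. Tm7sf2 (a sterol reductase) was at -0.85 ± 0.27 (adjusted p = 0.0966) and Dhcr7, the last enzyme before cholesterol in 1 branch, at -0.82 ± 0.28 (adjusted p = 0.114).

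Nsdhl, a sterol dehydrogenase that takes part in removing methyl groups from lanosterol, showed the clearest change (ENSMUSG00000031349.4, chrX:72918557-72958514, plus strand, GENCODE vM21 on GRCm38). Control livers ran from 35.1 to 67.3 CPM with a median of 48.8, and time-0 livers from 46.2 to 78.4 with a median of 51.8. TLS livers ran from 4.001 to 36.1 CPM with a median of 20.4. The log2 fold change was -1.43 ± 0.28 (adjusted p = 0.00859), a level 0.370 times that of controls. Only TLS animal A5DA, at 36.1 CPM, reached into the control range, whose lowest animal A123 had 35.1. Within each sex the groups did not overlap: TLS F livers had at most 16.6 CPM and control F livers at least 35.1, and TLS M livers at most 36.1 and control M livers at least 40.5.

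Lss, lanosterol synthase, closes squalene epoxide into the first sterol (ENSMUSG00000033105.12, chr10:76531588-76557138, plus strand). Its control livers ran from 21.9 to 66.5 CPM with a median of 34.5 and its TLS livers from 10.4 to 25.0 with a median of 21.6. The log2 fold change was -0.83 ± 0.21 (adjusted p = 0.0405). The 4 control F livers lay at 39.99 CPM or above, over every TLS liver, and the control M livers, from 21.9 to 28.9, overlapped with TLS. Sc5d (ENSMUSG00000032018.14, chr9:42251595-42264256, minus strand) ran from 219 to 547 CPM in control livers with a median of 371 and from 130 to 301 in TLS livers with a median of 204. It fell by 0.80 ± 0.20 on the log2 scale (adjusted p = 0.0357). Its overlap was with the control M livers, from 219 to 305 CPM, which TLS livers of both sexes reached, whereas every TLS liver was below every control F liver.

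**Figure D3:**
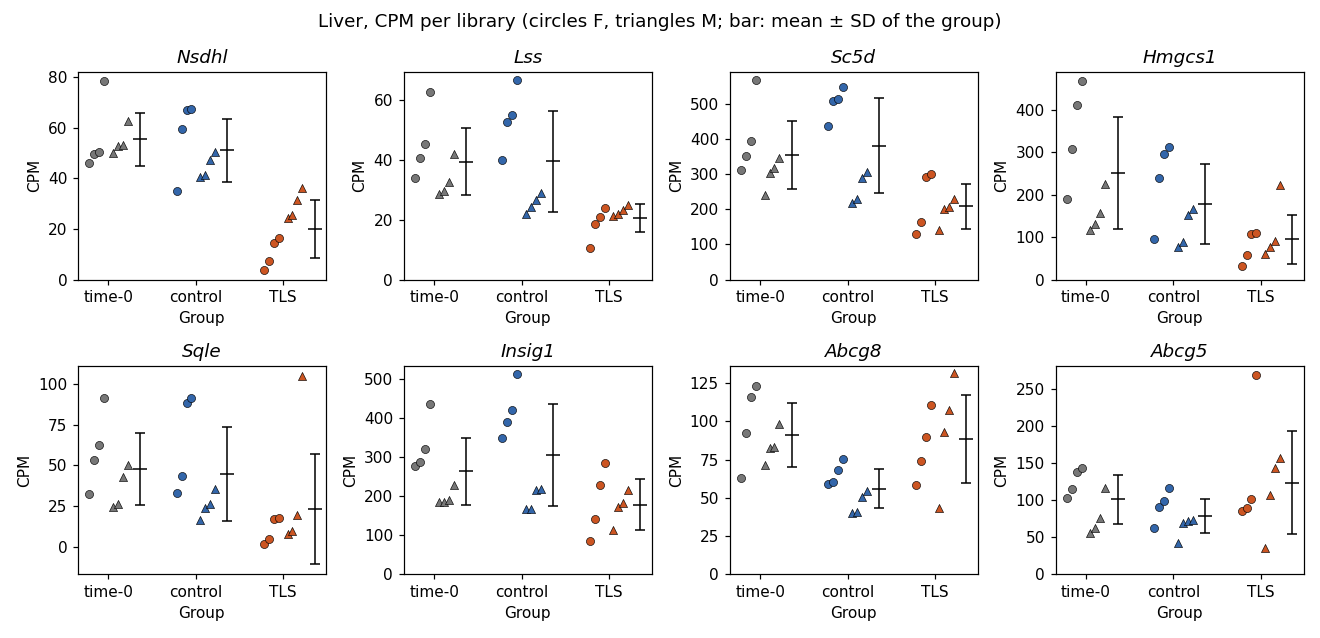
Liver level of 8 members in CPM by library (y axis) and group (x axis), with circles for F, triangles for M and bars for the mean ± SD of the group. TLS libraries of Nsdhl, from 4.001 to 36.1 CPM, sit below controls save animal A5DA, which is the top TLS library of Hmgcs1 and Sqle as well.

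The TLS livers differed among themselves more than the other groups did. The mean log2 difference of the 19 synthesis genes from control livers of the same sex was -2.47 in animal B51B, -2.21 in B4B9, -0.96 in B03E and -0.91 in B23B, the 4 F animals. It was -0.65 in DDF3, -0.53 in E46E, -0.36 in 47BE and 0.70 in A5DA, the 4 M animals. Control livers ran from -0.40 to 0.59 and time-0 livers from -0.69 to 0.46. So 7 TLS livers were negative and A5DA was above every control. In A5DA, Sqle (squalene epoxidase, a slow step of the route) had 105.1 CPM where the TLS median was 13.5, and Msmo1, a sterol methyl oxidase, 230 CPM where it was 37.3. Its Mvk (mevalonate kinase) was at 105.3 CPM against a TLS median of 9.02, yet its Sc5d, at 141.1 CPM, was below the TLS median of Sc5d.

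**Figure D4:**
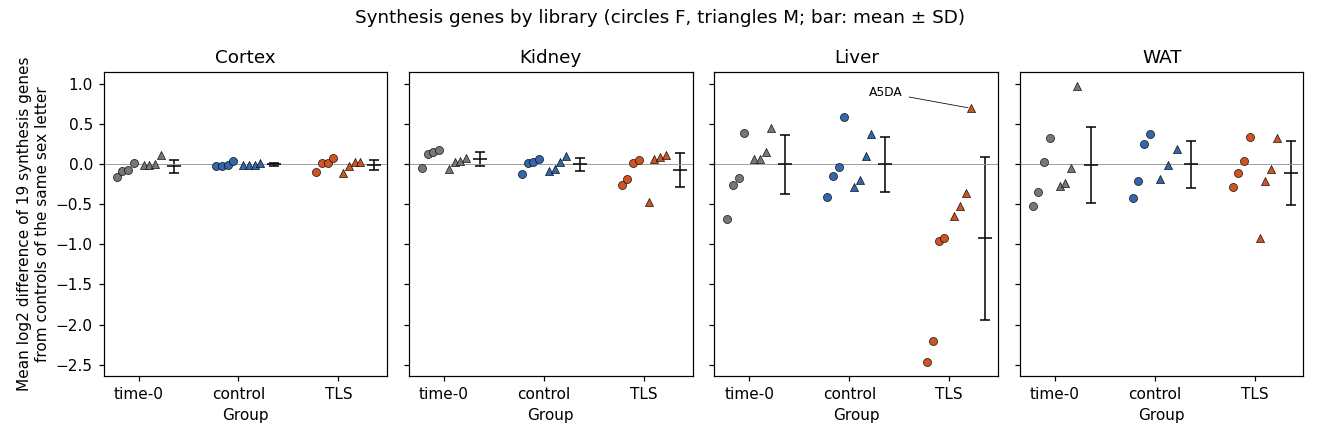
Mean log2 difference of the 19 synthesis genes from control libraries of the same sex and tissue, by library, with circles for F, triangles for M and bars for the mean ± SD of the group. TLS livers spread from -2.47 to 0.70, while the TLS libraries of cortex stay between -0.10 and 0.08.

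Without the A5DA liver, 12 members were called for TLS against control in place of 3, 11 lower and 1 higher, where 2.86% of all genes were called. All 19 synthesis genes were then negative, with a median of -1.05. Those that fell were Hmgcs1, Pmvk, Mvd, Fdps, Sqle, Lss, Cyp51, Msmo1, Nsdhl, Sc5d and Dhcr7, from -0.76 ± 0.20 in Sc5d to -1.83 ± 0.38 in Sqle (edgeR adjusted p from 0.00321 to 0.0431). The gene that rose was Abcg8, at 0.78 ± 0.18 (adjusted p = 0.0215). A5DA had the highest synthesis score of the TLS livers, so leaving it out was bound to lower the TLS level of these genes. The fit without it is therefore no separate support for a fall. Leaving out any other single TLS or control liver left between 1 and 5 members called, where 0.611% to 5.83% of all genes were. Count 1 was left without TLS animals B4B9, B51B or E46E or control animals 983B, 9916, A367, D215 or E329, and 5 without TLS animal B23B, where the share of all genes called was that 5.83%. Nsdhl was called in all 16 of these fits, with adjusted p from 0.00321 to 0.0208, Sc5d in 8 and Lss in 6. A5DA also stood low in the other organs with the same score, at -0.92 in WAT and -0.48 in kidney, the lowest TLS library in both. Its kidney was unlike the others in RNA make-up. Nuclear transcripts (Malat1, Neat1 and Meg3) were 0.959% of its counts, and 0.612% in B4B9, the next highest kidney. The part of this in its score was not tested.

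Within each sex, liver members were called in F animals. All 19 synthesis genes were negative in F, with a median of -1.52, and the fit with sex crossed with group called Nsdhl (-2.40 ± 0.31, adjusted p = 0.000752) and Lss (-1.52 ± 0.24, adjusted p = 0.00525), where 0.147% of all genes were called. In M, 11 of the 19 were negative, with a median of -0.09, and no member was called, where 0.390% of all genes were. An unadjusted p below 0.05 was found for 4 members, and for 16.0% of all genes. A5DA was among the M TLS livers, with a mean log2 difference of the 19 genes of 0.70. The other M TLS livers, DDF3, E46E and 47BE, were at -0.65, -0.53 and -0.36. The test of the difference between the sexes called 0 of 31 members and 1 of 13604 genes (0.00735%). It gave 17 members an unadjusted p below 0.05, and 6.17% of all genes, and DESeq2 called 1 member. With no filter on low counts edgeR called 7 members, among 191 genes in all. Among control livers 2 members were lower in M than in F, where 2.18% of all genes differed: Insig1 had 417 ± 68.95 CPM in F and 191 ± 28.6 in M (n = 4 each, adjusted p = 0.0391), and Lss 53.5 ± 10.9 in F and 25.4 ± 3.01 in M (adjusted p = 0.00885). Among TLS livers Nsdhl was higher in M (1.44 ± 0.30, adjusted p = 0.00831), where 1.73% of all genes differed. Over all 3 groups Insig1 was lower in M with a log2 difference of -0.66 ± 0.18 (adjusted p = 0.0235), the only member called for sex in liver, where 6.40% of all genes were. This call was lost without any of 7 livers: control 9BA4, A123 or E329, time-0 T0_2, T0_7 or T0_8, or TLS B03E. Without A5DA 6 members were lower in M, where 9.27% of all genes differed. The count was 3 without B51B (6.26% of all genes) and 2 without 47BE, B4B9 or T0_1 (6.55%, 6.02% and 5.89%).

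No regulator or exporter was called in liver for TLS against control. Srebf2, the master regulator, had a log2 fold change of 0.05 ± 0.20, and Scap 0.19 ± 0.19. Insig1, itself an SREBP target, was at -0.67 ± 0.22 (adjusted p = 0.112), with TLS livers from 83.7 to 284 CPM and control livers from 165 to 511. Insig2 was at -0.17 ± 0.23, Nr1h3 at -0.19 ± 0.22 and Mylip, the LXR-induced ubiquitin ligase of lipoprotein receptors, at 0.22 ± 0.30. Abcg8 and Abcg5 were at 0.68 ± 0.20 (adjusted p = 0.0714) and 0.68 ± 0.26 (adjusted p = 0.177). TLS livers ran from 43.2 to 131.7 CPM in Abcg8 and control livers from 39.8 to 75.5, with overlap. Both genes share a start region on opposite strands and overlap, and without strand their reads cannot be told apart where they do. Soat2 was at -0.06 ± 0.18 and Stard4, a sterol carrier, at -0.15 ± 0.23.

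Other genes of the pathway in liver, from lists beside the 31, were mostly not called. None of 13 genes of isoprenoid branches and none of 9 of SREBP processing was called for TLS against control, and 1 gene in each list had an unadjusted p below 0.05. Of 13 genes of uptake and traffic, 1 rose: Scarb1, the receptor that takes cholesterol from HDL, went from 77.6 ± 23.8 CPM in controls to 156 ± 50.7 under TLS (1.01 ± 0.20, adjusted p = 0.00692). Of 6 LXR partners and targets, 1 fell: Pltp, the phospholipid transfer protein, at -1.36 ± 0.30 (adjusted p = 0.0183). Of 10 genes of sterol breakdown and export, 9 were tested and 0 called. Fatty acid synthesis, a neighbouring route, had 4 of 15 genes lower and 0 higher, Fasn (-1.95 ± 0.36, adjusted p = 0.00518), Acly (-1.63 ± 0.28, adjusted p = 0.00301) and Thrsp (-2.23 ± 0.49, adjusted p = 0.0189) among them. The summed level of 8 hepatocyte markers ran from 45844 to 109566 CPM under TLS and from 82330 to 147457 in controls, and none of the 8 was called. Kupffer cell markers summed to between 49.4 and 1242 CPM under TLS and between 89.3 and 428 in controls; the part of either in these results was not tested.

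In cortex, Abca1 was the member that rose under TLS (ENSMUSG00000015243.4, chr4:53030787-53159895, minus strand). Control cortices ran from 18.5 to 30.3 CPM with a median of 26.1, time-0 cortices from 20.8 to 30.97 with a median of 22.3, and TLS cortices from 28.03 to 46.8 with a median of 35.9. The log2 fold change was 0.53 ± 0.09 (adjusted p = 0.00364), a level 1.44 times that of controls. Of the TLS libraries, B23B, at 28.03 CPM, lay within the control range and the other 7 above it. In all 16 fits without a single library Abca1 was called, and in 2 of these fits a second member was, without control 983B or TLS B03E. In F libraries alone Abca1 was at 0.36 (adjusted p = 0.376). Dhcr7 (-0.19 ± 0.06, adjusted p = 0.0733) and Stard4 (0.22 ± 0.08, adjusted p = 0.0981) came next, and the 19 synthesis genes had a median of 0.02, with 10 positive.

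Cell markers moved with group in cortex, and the share of nuclear RNA differed between TLS and control mainly in M. Microglial markers (microglia are the brain's own macrophages) summed to between 476 and 793 CPM under TLS and between 382 and 500 in controls, with 7 of 8 called higher. Those of astrocytes summed to between 3512 and 4483 CPM against 2670 to 4029, with 3 of 8 called, and those of myelin to between 5048 and 9490 against 4283 to 6302, with 5 of 12 called. Nuclear transcripts made up 0.613 ± 0.0463% of counts in control M cortices, 0.311 ± 0.0960% in control F, 0.268 ± 0.0475% in TLS M and 0.273 ± 0.0441% in TLS F (n = 4 each). With that share as a covariate Abca1 was at 0.33 (adjusted p = 0.307) and no member was called. The part of the cell markers in the Abca1 result was not tested. Within M cortices 6 of 28 members were called, where 16.6% of all genes were, and within F cortices 0 were, where 0.433% of all genes were. In M, Abca1 (0.69 ± 0.13), Idi1 (0.62 ± 0.15), Mylip (0.37 ± 0.12), Stard4 (0.33 ± 0.11) and Insig1 (0.26 ± 0.08) rose and Tm7sf2 fell (-0.39 ± 0.12), with edgeR adjusted p from 0.000515 to 0.0342. In F, 3 members had an unadjusted p below 0.05, and 12.1% of all genes. Of the other lists, Lcat, which esterifies cholesterol in plasma lipoproteins, rose by 0.43 ± 0.11 (adjusted p = 0.0203), 1 of 6 tested in its list, and Elovl5 and Acaca rose among 15 fatty acid genes.

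The TLS effect differed between the sexes for 2 members in cortex, where 5.08% of all genes differed. Idi1 was low in control M cortices, at 8.87 ± 1.38 CPM against 13.9 ± 1.11 in control F, and under TLS had 13.7 ± 1.64 and 12.3 ± 2.19 CPM (n = 4 each). The difference of its TLS effect, M minus F, was 0.80 ± 0.21 on the log2 scale (adjusted p = 0.0257). Acat2, the cytosolic thiolase that starts the route, had 35.4 ± 3.74 CPM in control M and 31.04 ± 1.82 in control F, and 32.5 ± 1.91 and 39.2 ± 1.962 under TLS, a difference of -0.46 ± 0.12 (adjusted p = 0.0306). Control M cortices, low in Idi1, were those with the high nuclear share, and with that share as a covariate 0 members were called. In kidney and WAT the TLS effect differed between the sexes for 0 members by edgeR and by DESeq2, where 0.00% of all genes differed, and 1 and 4 members had an unadjusted p below 0.05, as did 8.28% and 15.3% of all genes. Idi1 has 3 pseudogenes of at least 90% identity over 300 bases, so its counts are uncertain where reads could be shared. The same holds for Fdps, with 5 such pseudogenes, and for Ggps1 and Fdft1, with 1 each.

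In kidney the members with the smallest p for TLS against control were Insig1 (-0.40 ± 0.13, adjusted p = 0.342), Abca1 (-0.40 ± 0.24, adjusted p = 0.667) and Pmvk, phosphomevalonate kinase (0.27 ± 0.17, adjusted p = 0.682). Insig1 ran from 18.5 to 34.2 CPM under TLS and from 27.9 to 42.1 in controls. In WAT they were Mylip (0.41 ± 0.13, adjusted p = 0.242), Sc5d (-0.46 ± 0.21, adjusted p = 0.442) and Soat1 (0.60 ± 0.30, adjusted p = 0.471). Mylip ran from 41.3 to 75.4 CPM under TLS and from 32.3 to 54.3 in controls. Soat1, which foam cells use to store cholesterol esters, had 84.3 CPM in the WAT of A5DA, the library rich in macrophage markers, where the TLS median was 22.8. Over the members tested, log2 fold changes ran from -0.40 to 0.27 in kidney and from -0.46 to 1.48 in WAT, the top being Soat2, whose highest level there was 8.55 CPM, again in A5DA. Scd1 fell in kidney (-1.54 ± 0.28, adjusted p = 0.0113), 1 of 15 fatty acid genes, and no gene of the 5 other sterol lists was called in kidney or WAT.

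Set side by side over tissues, the TLS effect on Nsdhl was -1.43 ± 0.28 in liver and differed between the tissues in a joint fit (adjusted p = 0.00907), with a liver minus cortex difference of -1.51 on the log2 scale. It was the only member so called, where 4.39% of 20888 genes were. With the animal as a replicate block, since the same animals gave all tissues, 2 members were called, Nsdhl (adjusted p = 0.0139) and Sc5d (adjusted p = 0.0275), where 2.30% of genes were. Without animal A5DA, 12 members were called, where 5.18% of all genes were. Without any other animal 1 or 2 members were called, where 2.02% to 8.04% of genes were, the highest share without B23B.

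Control against time-0 compares mice 83 days apart in age without TLS, and in cortex it called 3 of 28 members, where 21.2% of all genes were called. Hsd17b7, a sterol ketoreductase, was lower in controls (-0.34 ± 0.08, adjusted p = 0.00387), from 14.4 to 20.1 CPM against 20.3 to 24.6 at time 0, with no overlap. Mvk rose from 20.5 ± 3.20 to 26.3 ± 3.71 CPM (0.36 ± 0.09, adjusted p = 0.00588). Hmgcs1, the cytosolic synthase that commits acetyl units to the route, was at -0.15 ± 0.06 (adjusted p = 0.0489) and lost its call in 13 of 16 fits without a single library, with adjusted p from 0.0211 to 0.123. In kidney, liver and WAT edgeR called no member, where 0.312%, 0.529% and 0.161% of all genes were called, and 3, 7 and 2 members had an unadjusted p below 0.05, as did 11.3%, 15.1% and 11.6% of all genes. DESeq2 called 0, 1 and 0.

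TLS against time-0 shares its TLS libraries with the first comparison and adds age to the state. In cortex 13 of 28 members were called, 8 higher and 5 lower, where 35.7% of all genes were. Abca1 rose most, at 0.60 ± 0.09 (adjusted p = 2.65e-05), and Insig1 (0.23 ± 0.06), Mvk (0.29 ± 0.09), Msmo1 (0.19 ± 0.06), Acat2 (0.22 ± 0.08), Nsdhl (0.21 ± 0.07), Ggps1 (0.20 ± 0.08) and Stard4 (0.20 ± 0.08) rose less. Hsd17b7 (-0.35 ± 0.08), Tm7sf2 (-0.28 ± 0.09), Dhcr7 (-0.23 ± 0.06), Lss (-0.22 ± 0.07) and Scap (-0.16 ± 0.05) fell (edgeR adjusted p for these 12 from 0.00126 to 0.0483). With the nuclear share as a covariate 1 member was called. Nuclear transcripts made up 0.5679 ± 0.0365% of counts in time-0 F and 0.513 ± 0.0446% in time-0 M cortices. In liver 2 of 31 members fell, where 1.34% of all genes were called: Nsdhl (-1.54 ± 0.28, adjusted p = 0.00415) and Lss (-0.87 ± 0.21, adjusted p = 0.0349). Both had no overlap, with at most 36.1 and 25.0 CPM under TLS and at least 46.2 and 28.7 at time 0. Overlap of groups was looked at for the members alone, in this and the other comparisons, so no share over all genes is given. Without the A5DA liver 9 members fell there, where 1.27% of all genes were called. The count was 5 without 47BE (2.79% of all genes called), 4 without B23B (1.86%) and 3 without T0_1 (1.22%), and it was 1 without TLS animals B03E, B4B9 or B51B or time-0 animals T0_2, T0_3, T0_5 or T0_6. In kidney and WAT edgeR called none, where 0.681% and 0.226% of all genes were called, and DESeq2 called 2 and 1. An unadjusted p below 0.05 was found for 7 and 3 members, and for 15.1% and 13.1% of all genes. Without TLS animal 47BE 2 members were called in kidney, where 324 of 16180 genes were, and without B23B or E46E 1 was in WAT, where 0.426% and 0.301% of all genes were.

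In kidney 15 of 28 members were called between M and F animals over all 3 groups, 10 higher and 5 lower in M. That share of 53.6% is near the 46.8% of all genes that were called, so the count says nothing particular to the members. Cyp51 was lower in M (-0.90 ± 0.11, adjusted p = 2.24e-07), from 102.1 to 193 CPM with a median of 173 in M (n = 12) and from 197 to 387 with a median of 311 in F (n = 12). Mylip was lower as well (-0.95 ± 0.14, adjusted p = 7.55e-06), from 15.3 to 39.1 CPM in M and from 42.9 to 73.7 in F. For these 2 genes no M kidney reached an F kidney, and each was lower in M within every group, from -0.68 to -1.08 in Cyp51 and from -0.68 to -1.09 in Mylip. The share of all genes without overlap between M and F kidneys was not counted, so this separation is not shown to be particular to them. Cyp51 overlaps Akap9 on the other strand, so its counts are uncertain where they overlap.

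Of the 8 genes of the mevalonate and isoprenoid steps, 5 were called between M and F kidneys, all higher in M. Of all genes tested, 46.8% were called there, 24.6% higher and 22.2% lower in M. Mvd, which makes isopentenyl diphosphate, was higher in M (0.97 ± 0.13, adjusted p = 1.48e-06), from 46.8 to 136.1 CPM in M and from 34.4 to 77.6 in F. Idi1 (1.42 ± 0.25, adjusted p = 6.91e-05), Hmgcs1 (0.71 ± 0.13, adjusted p = 8.49e-05) and Acat2 (0.54 ± 0.09, adjusted p = 3.84e-05) were higher too. Mvk was the fifth, and the 8 had a median of 0.50. Nsdhl (0.44 ± 0.10), Nr1h3 (0.50 ± 0.12), Sc5d (0.49 ± 0.12), Ebp and Scap were higher in M, and Fdft1 (-0.35 ± 0.08), Stard4 and Abca1 lower. The 15 calls came back in each of the 30 other fits. In WAT, Dhcr7 was lower in M (-0.68 ± 0.16, adjusted p = 0.00686), the 1 member called of 31, where 11.8% of all genes were, at 13.0 ± 4.15 CPM in M (n = 11) and 20.9 ± 5.48 in F (n = 12), with overlap. Without A5DA 3 members were called in WAT, where 15.6% of all genes were, and without 5A66, 9916, T0_3 or B23B 2, where 10.0% to 11.5% were. In cortex over all 3 groups no member was called for sex by edgeR or DESeq2, where 0.126% of all genes were called, and 3 had an unadjusted p below 0.05, as did 11.2% of all genes. The groups differed in this: among control cortices 2 of 28 members were lower in M, where 11.6% of all genes differed. Among TLS and time-0 cortices 0 members were called, where 0.355% and 0.0903% of all genes differed.

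**Figure D5:**
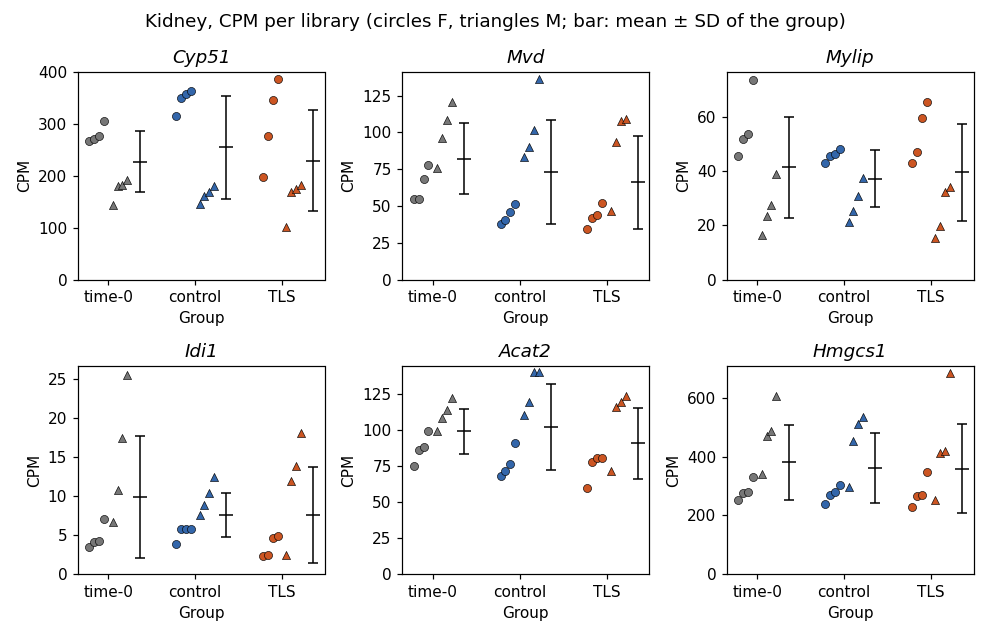
Kidney level of 6 members in CPM by library (y axis) and group (x axis), with circles for F, triangles for M and bars for the mean ± SD of the group. In Cyp51 and Mylip every triangle lies below every circle, while Mvd and Idi1 tend to be higher in M. The share of all genes that separate in this way was not counted.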

How the data were processed

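Polyadenylated RNA of cortex, kidney, liver and WAT was sequenced, and the authors deposited whole-number read counts per gene symbol for 95 libraries. The submitters' processing notes name STAR 2.7.10, DESeq, DESeq2 and the build mm10 (GRCm38). A header line reads "corrected" with no further explanation, and the annotation and strand setting are not given in the sources used here. Groups were taken from the labels. No pair of libraries held identical counts.

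Counts were tested per tissue with edgeR 4.0.16 (R 4.3.3, limma 3.58.1) by its quasi-likelihood test, with TMM scaling, a minimum count of 10 in filterByExpr, sex as covariate and all 3 groups in the fit. P-values were adjusted by Benjamini-Hochberg over all genes tested, and the threshold was 0.05. Differences between tissues came from a joint fit, with the animal as a replicate block as an alternative, since labels give the same animals for all tissues. The alternatives were DESeq2 1.42.0, other scalings and filters, each sex alone, the share of nuclear RNA as a covariate and leaving out each library. Leaving out libraries for M against F, and time-0 animals 4 and 5 in kidney, was added after seeing the data. The liver fit without A5DA was picked for a gene-by-gene account because of its result. Tested on simulated data with 200 genes changed 2-fold, the test recovered 91.5% of them in cortex (16609 genes), 77.5% in kidney (16005), 44.5% in liver (13604) and 65% in WAT (16784). Library totals went down to 4031533, in 1 liver. The parts of depth and of spread between animals in this recovery were not separated.

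The 31 members and the lists were chosen with earlier results of these data known. All members are accounted for by count and range. Called members are named, in full for the 10 of smallest p, with the 3 of smallest p among those not called for TLS against control and up to 3 called genes of each other list. Animals of a group are separate mice.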

Additional observations from a re-analysis of the deposited data

Results flagged for a closer look

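Within groups of 8, or 7 for WAT controls, a gap test at the 95% level was run on 24 groups. These were the synthesis score in each tissue, Abca1 in cortex, and Nsdhl, Lss and Sc5d in liver. It set 3 libraries apart, where chance gives about 1 in 20. The single genes were picked because they were called, so that rate is only a rough guide for them. Lss in TLS liver had 10.4 CPM in animal B51B, the shallowest library, and the nearest other TLS liver had 18.6. Sc5d in time-0 liver had 569 CPM in animal T0_2 and 395 in the nearest. Abca1 in time-0 cortex had 30.97 CPM in animal T0_2 and 25.5 in the nearest. By the synthesis score no library was set apart in any tissue, and so A5DA was not set apart among the TLS livers.

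The TLS effect differed between M and F in cortex by 0.80 on the log2 scale for Idi1 and by -0.46 for Acat2, by the contrast of the crossed fit. The TLS effect on Nsdhl differed between tissues, with a liver minus cortex difference of -1.51.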

How the results depend on the processing

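Of 464 recomputed counts of called members, 385 stayed within 1.5 times the main count and 79 did not. Of 1067 recomputed values of named members, 929 kept their direction and call, 0 reversed, and the others kept the direction but not the call. The cause of these differences was not tested. Kidney M against F was the largest set of calls that held. Lss and Sc5d in liver were the least firm of the calls for TLS against control. Simulated recovery was lowest in liver, and the part of depth and of spread in that was not separated.

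For TLS against control, cortex gave 0 members in F alone, 8 in M alone and 0 with the nuclear share as covariate, and liver gave 5 by DESeq2, 1 with only the 2 groups compared, 1 in F alone and 0 in M alone. For control against time-0, cortex gave 1 in F alone and 5 with the covariate, kidney 1 with only 2 groups and 5 in F alone, and liver 1 by DESeq2 and 2 with only 2 groups. For TLS against time-0, cortex gave 4 in M alone and 1 with the covariate, kidney 2 by DESeq2, 2 in F alone and 1 without time-0 animals 4 and 5, and WAT 1 by DESeq2. Liver gave 6 by DESeq2, 1 without sex as covariate, 1 in F alone, 0 in M alone and 6 with the nuclear covariate. For M against F, liver gave 2 by DESeq2, 2 with at least 1 CPM in 8 libraries and 2 with the covariate, and WAT 3 by DESeq2 and 0 with the covariate. For the difference of the TLS effect between sexes, cortex gave 1 with no filter and 0 with the covariate, and liver 1 by DESeq2 and 7 with no filter. Between tissues, the fit with the animal as a replicate block, which pairs the tissues of an animal, gave 2.

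Leaving out single libraries, TLS against control gave 1 to 2 members in cortex, 0 to 0 in kidney and WAT and 1 to 12 in liver. Control against time-0 gave 2 to 4 in cortex and 0 to 0 elsewhere. TLS against time-0 gave 9 to 13 in cortex, 0 to 2 in kidney, 1 to 9 in liver and 0 to 1 in WAT. M against F gave 0 to 0 in cortex, 15 to 16 in kidney, 0 to 6 in liver and 1 to 3 in WAT. Between tissues the count was 1 to 12.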
